A study of Mus musculus with 12 samples.

Results

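Hearts that carried the cre transgene with both *Gata* genes intact were compared with floxed hearts that carried no cre, which asks what a cre line alone looks like beside the controls of a conditional deletion. The comparison was chosen with earlier results of these data known. It holds 6 of the 12 hearts of the series, taken by their genotype labels and not by any measured value. They were 2 cre hearts (wild-type *Gata4* and *Gata6*, cre transgenic) against 4 floxed hearts, made up of 2 *Gata4* floxed and 2 *Gata6* floxed hearts in which loxP sites flank part of the named gene. The other 6 hearts, 3 *Gata4*-deleted and 3 *Gata6*-deleted, carry both cre and the floxed gene, and they were used to see on which side each gene lies in hearts that have the transgene. All mice were labelled as 8 weeks old and untreated apart from their alleles, and every array is a separate mouse given as a biological replicate. The labels state that cre comes from an alpha myosin heavy chain transgene, whereas the methods of the study name the beta myosin heavy chain promoter, so the promoter of the line is uncertain here. Neither source used here gives the strain background of the 3 lines, so a difference due to the transgene and one due to the background of the cre line cannot be told apart from these 6 hearts alone.

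Cre is a bacteriophage enzyme that recombines DNA between loxP sites, and a promoter of the myosin heavy chain genes limits it to heart muscle cells. Sustained cre at high levels is known to damage DNA at sites that resemble loxP and can harm cardiomyocytes, which is why a cre mouse without floxed genes is a common control. A transgene also sits at one place in the genome and carries flanking DNA of the strain in which it was made, and the breeding that joins it to a floxed allele reshuffles the rest.

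Values on the log2 scale were available for 35557 probesets per array, which are groups of short probes summarised as 1 value each. Of these, 12147 had no gene in the annotation used here, and whether each of them measures a transcript is not known here. Array medians were 5.61 to 5.66 over all 12 hearts. The correlation across probesets was 0.989 between both cre hearts, 0.982 to 0.988 between cre and floxed hearts and 0.983 to 0.989 among floxed hearts. *Gata4*, a zinc finger factor of the heart, read 8.97 and 9.13 in cre hearts, 9.15 to 9.25 in *Gata4*-deleted hearts and 8.98 to 9.26 in floxed hearts. *Gata6*, its close relative, read 8.97 and 8.85 in cre hearts, 8.98 to 9.21 in *Gata6*-deleted hearts and 8.69 to 9.09 in floxed hearts. Neither probeset sorts the hearts by label. Where their probes lie relative to the floxed exons was not looked at, so the loss of an exon was not checked. The difference between cre and floxed hearts was -0.10 (SE 0.08) for *Gata4* and 0.08 (SE 0.12) for *Gata6*, and neither passed by limma (adjusted p = 0.798 and 0.912).

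Cre and floxed hearts differed at 34 of 35557 probesets (0.0956%), of which 21 were higher (0.0591%) and 13 lower (0.0366%) in cre hearts. The test was limma's on one model of all 12 arrays, with each floxed line weighted equally and an adjusted p (Benjamini-Hochberg, all probesets) under 0.05 as the threshold. The differences were 0.49 to 3.23 in size on the log2 scale, with a median of 0.92. Probesets with 1 gene symbol made up 22 of the 34 and named 21 genes, 3 carried several symbols, and 9 had no gene in the annotation used here. At 30 of the 34 probesets both cre hearts lay on one side of all 4 floxed hearts, a separation seen at 15.8% of all probesets. At an unadjusted p under 0.05 there were 2963 probesets (8.33%). With 2 hearts against 4, the smallest exact two-sided p of a single probeset is 0.133, so every call rests on the spread shared with the other groups. Without cre heart 1, cre heart 2 or *Gata4* floxed heart 1 the count was 4, and without *Gata4* floxed heart 2, *Gata6* floxed heart 1 or *Gata6* floxed heart 2 it was 10, 11 and 13. Of the 21 genes, *Klk1b22* and *Gas5* passed without any 1 of the 6 hearts. *Cd59a* passed in 4 of the 6 fits with a heart left out, *Ppil1* and *Kcnj11* in 3, *Npl* and *Lgr6* in 2, *Pcsk6* and *Per1* in 1 and the other 12 genes in none.

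In hearts that carry both cre and a floxed gene, most of these probesets were found where the floxed hearts were. A deleted heart was placed on the cre or the floxed side of the midpoint between the cre mean and the mean of both floxed lines. All 6 deleted hearts lay on the floxed side at 21 of the 34 probesets, against 9.93% of all probesets. All 6 lay on the cre side at 2, against 4.15% of all probesets. At 3 probesets the deleted lines parted, each with its own floxed line, and 8 were mixed. The comparison of all deleted hearts with cre hearts passed at 21 of the 34 (0.146% of all probesets), and that of deleted with floxed hearts at 3 (0.0956% of all probesets). Both share hearts with the comparison that chose the 34, the first its 2 cre hearts and the second its 4 floxed hearts. These counts and the single p-values of deleted hearts at called genes are therefore descriptions, and the shares over all probesets are no measure of what would be seen by chance. The plot of all hearts at the called genes shows both patterns.

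**Figure D1:**
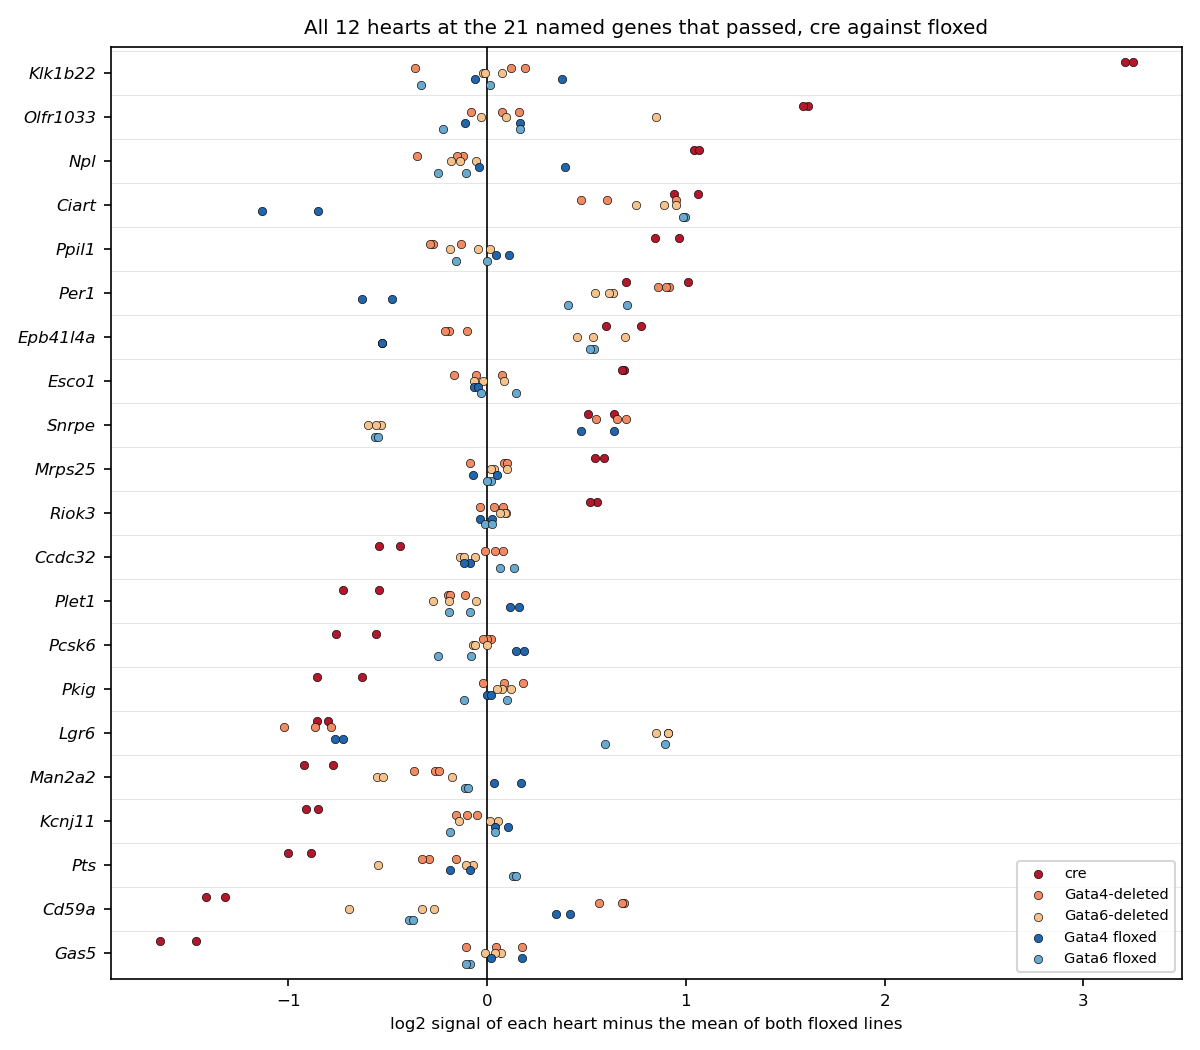
Log2 signal of each of the 12 hearts minus the mean of both floxed lines (x axis), at the 21 genes that passed in cre against floxed hearts (rows, ordered by the difference). At *Klk1b22* the cre hearts stand 3.23 above the floxed mean with all other hearts near 0, at *Gas5* they stand lower (-1.56), and at *Ciart* and *Per1* the *Gata4* floxed hearts stand apart instead.

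The largest difference was in *Klk1b22*, a serine protease of the glandular kallikrein family best known from the salivary gland. It read 6.98 and 6.94 in cre hearts, 3.37 to 3.92 in *Gata4*-deleted hearts, 3.71 to 3.81 in *Gata6*-deleted hearts, 3.67 and 4.11 in *Gata4* floxed hearts and 3.40 and 3.74 in *Gata6* floxed hearts. Both cre hearts were thus far above the other 10, which overlapped each other. The log2 difference from floxed hearts was 3.23 (SE 0.17, limma adjusted p = 0.000306). Whether the low values of the other 10 hearts were above background was not tested, so no fold change is given. The deleted hearts differed from cre hearts by -3.23 (limma adjusted p = 0.000177) and overlapped the floxed hearts (adjusted p = 0.999). The 9 other measured *Klk1b* genes, near copies that lie beside it, differed by -0.08 to 0.46 between cre and floxed hearts, with 0.442 as the smallest adjusted p. Their values were 2.56 to 5.25 over all hearts, and how far probes of such similar genes share signal was not tested.

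*Npl* and *Ppil1* gave the same picture at a smaller size. *Npl*, the lyase that breaks down sialic acid, read 6.81 and 6.84 in cre hearts, 5.42 to 5.72 in the 6 deleted hearts and 5.53 to 6.17 in floxed hearts. *Ppil1*, a cyclophilin of the spliceosome, read 8.17 and 8.30 in cre hearts, 7.04 to 7.35 in deleted hearts and 7.18 to 7.44 in floxed hearts. Neither gene had a deleted or floxed heart within reach of the cre hearts, and the deleted hearts spread over the floxed range or just below it. *Npl* was higher in cre than in floxed hearts by 1.05 (SE 0.12, limma adjusted p = 0.0293) and *Ppil1* by 0.90 (SE 0.09, limma adjusted p = 0.0144). Deleted hearts were lower than cre hearts in both, by limma, at -1.22 (adjusted p = 0.00849) for *Npl* and -1.06 (adjusted p = 0.00234) for *Ppil1*. Against one floxed line at a time, *Ppil1* passed with both, whereas *Npl* passed against *Gata6* floxed hearts (1.23, adjusted p = 0.0137) and not against *Gata4* floxed hearts (0.88, adjusted p = 0.0742).

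Smaller rises with the same placement were seen in *Esco1*, *Mrps25* and *Riok3*. *Esco1*, which acetylates cohesin, read 7.81 and 7.80 in cre hearts, 6.95 to 7.20 in deleted hearts and 7.05 to 7.26 in floxed hearts, a difference of 0.68 (SE 0.09, limma adjusted p = 0.0375). A second *Esco1* probeset differed by 0.44 and did not pass (limma adjusted p = 0.124). *Mrps25*, a protein of the small subunit of the mitochondrial ribosome, read 8.17 and 8.22 in cre hearts, 7.54 to 7.73 in deleted hearts and 7.56 to 7.68 in floxed hearts, a difference of 0.57 (SE 0.08, limma adjusted p = 0.0375). *Riok3*, a kinase of the RIO family, read 9.12 and 9.08 in cre hearts, 8.52 to 8.65 in deleted hearts and 8.52 to 8.59 in floxed hearts, a difference of 0.54 (SE 0.06, limma adjusted p = 0.0293). In all 3 genes the 10 hearts of the other groups formed one band below the cre hearts. *Olfr1033*, an olfactory receptor gene, rose by 1.60 (SE 0.22, limma adjusted p = 0.043) at a low signal, with 4.36 and 4.34 in cre hearts and 2.53 to 2.91 in floxed hearts. Of its deleted hearts, 1 *Gata6*-deleted heart at 3.59 lay nearer the cre hearts and the others read 2.66 to 2.91. *Colec12*, a scavenger receptor, and *Cryzl2*, a quinone oxidoreductase-like gene, completed the list on the higher side without passing, at 0.75 and 0.47 (limma adjusted p = 0.0685 for each).

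Among the genes lower in cre hearts, *Gas5*, a non-coding RNA whose introns hold small nucleolar RNAs, differed most. It read 7.66 and 7.48 in cre hearts, 9.02 to 9.30 in *Gata4*-deleted hearts, 9.12 to 9.19 in *Gata6*-deleted hearts, 9.14 and 9.30 in *Gata4* floxed hearts and 9.04 and 9.02 in *Gata6* floxed hearts. Only the cre hearts were low, and the ranges of deleted and floxed hearts overlapped. The difference from floxed hearts was -1.56 (SE 0.09, limma adjusted p = 0.000417), a 2.94-fold lower signal, and deleted hearts exceeded cre hearts by 1.59 (limma adjusted p = 0.000196). The other 3 probesets of *Gas5*, dimmer on average over all hearts, differed by -0.42 to -0.10 between cre and floxed hearts and none passed. The fall is therefore that of 1 probeset, and the values averaged over all 4 gave a smaller difference of -0.54.

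*Kcnj11*, the pore subunit of the potassium channel that closes with ATP, fell to 7.99 and 8.05 in cre hearts, against 8.75 to 8.96 in deleted hearts and 8.72 to 9.01 in floxed hearts. No heart with a floxed allele, deleted or not, came near the cre hearts. The difference was -0.88 (SE 0.09, limma adjusted p = 0.0144) and held against each floxed line, at -0.95 for *Gata4* floxed (adjusted p = 0.0144) and -0.81 for *Gata6* floxed hearts (adjusted p = 0.0224). Genes of the same channel, looked up after the values were seen, did not pass, with 0.05 for *Abcc8* and -0.13 for *Abcc9*, its sulfonylurea receptors, and -0.01 for *Kcnj8*, the other pore subunit. Of 17 measured ion channel genes *Kcnj11* was the 1 that passed (0.0956% of all probesets did), and the median difference of the list was 0.05, beside 0.01 for all probesets.

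*Pkig*, *Pcsk6*, *Plet1* and *Ccdc32* also fell in cre hearts and lay with the floxed hearts in all 6 deleted hearts. *Pkig*, an inhibitor of protein kinase A, read 7.28 and 7.05 in cre hearts, 7.89 to 8.09 in deleted hearts and 7.79 to 8.00 in floxed hearts, a difference of -0.74 (SE 0.09, limma adjusted p = 0.0375). *Pcsk6*, a convertase that cleaves precursor proteins, read 8.42 and 8.22 in cre hearts, 8.91 to 9.0 in deleted hearts and 8.73 to 9.17 in floxed hearts, a difference of -0.66 (SE 0.08, limma adjusted p = 0.0295). In both genes the deleted hearts were within or beside the range of floxed hearts and above both cre hearts. *Plet1*, a membrane protein first found in placenta, differed by -0.63 and *Ccdc32*, a coiled-coil gene, by -0.49 (limma adjusted p = 0.0375 for each). The plot of 8 genes by heart gives the values of several of these genes.

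**Figure D2:**
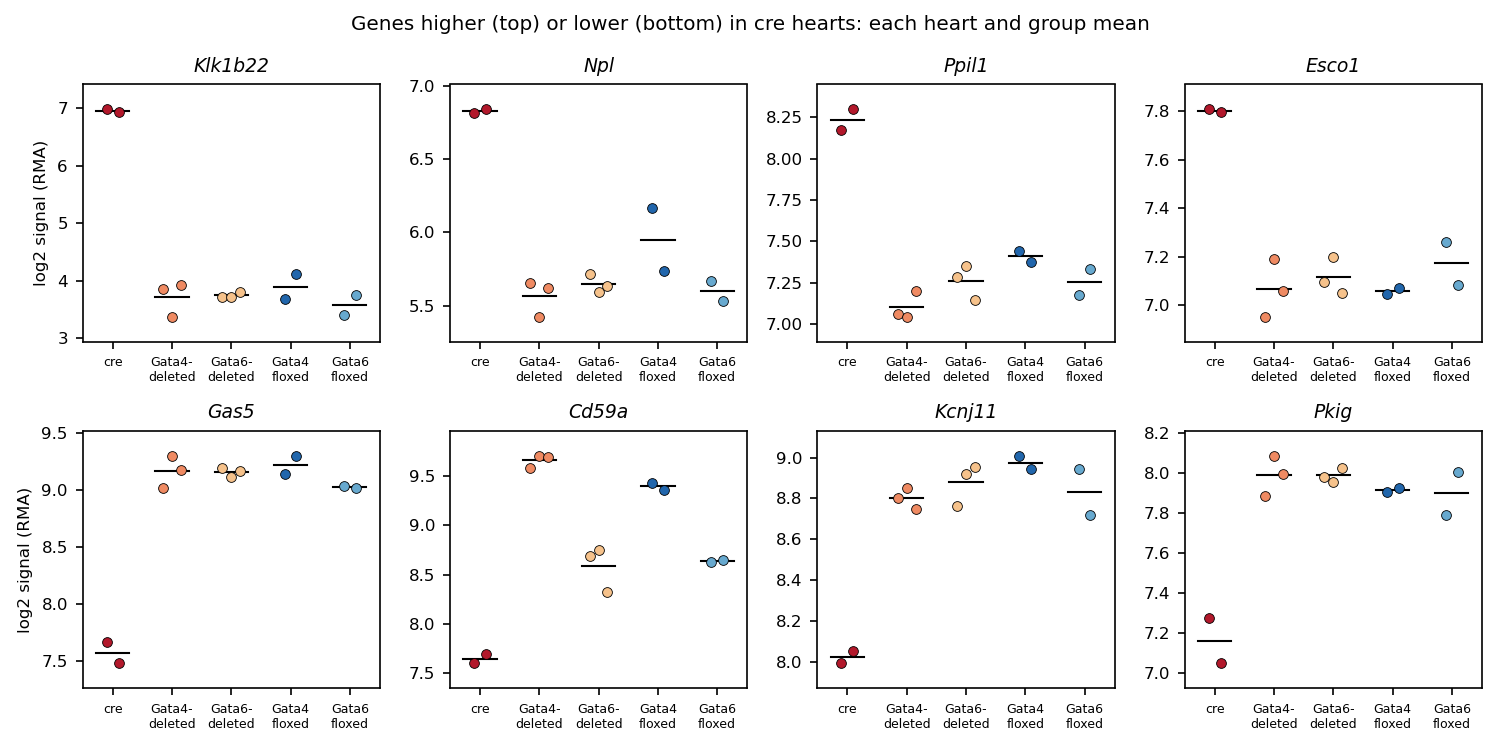
Log2 RMA signal (y axis) of every heart by group for 4 genes higher (top) and 4 genes lower (bottom) in cre hearts, with bars at group means. The cre hearts stand alone in each panel, and in *Cd59a* the *Gata6*-deleted and *Gata6* floxed hearts lie between the cre hearts and the *Gata4* lines.

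*Cd59a*, a membrane protein that blocks the attack complex of complement, had 3 levels rather than 2. It read 7.60 and 7.69 in cre hearts, 9.58 to 9.70 in *Gata4*-deleted hearts, 8.32 to 8.75 in *Gata6*-deleted hearts, 9.43 and 9.36 in *Gata4* floxed hearts and 8.62 and 8.64 in *Gata6* floxed hearts. Cre hearts were lowest, and each deleted line stayed near its own floxed line. The difference was -1.37 (SE 0.11, limma adjusted p = 0.00531), or -1.75 against *Gata4* floxed (adjusted p = 0.00211) and -0.99 against *Gata6* floxed hearts (adjusted p = 0.0261). The floxed lines differed from each other by 0.76, which did not pass (adjusted p = 0.0656). *Cd59b*, its neighbouring copy, looked up after the values were seen, read 5.01 and 4.84 in cre hearts and 4.90 to 5.90 in floxed hearts, and did not pass (-0.46, adjusted p = 0.411).

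*Pts* and *Man2a2* fell in cre hearts too, with deleted hearts in between. *Pts*, which makes the precursor of tetrahydrobiopterin, read 6.94 and 7.06 in cre hearts, 7.39 to 7.87 in deleted hearts and 7.76 to 8.09 in floxed hearts, a difference of -0.94 (SE 0.13, limma adjusted p = 0.0376). *Man2a2*, a mannosidase of the Golgi, read 8.16 and 8.01 in cre hearts, 8.37 to 8.75 in deleted hearts and 8.82 to 9.10 in floxed hearts, a difference of -0.85 (SE 0.11, limma adjusted p = 0.0375). All deleted hearts of both genes were above both cre hearts, and in *Man2a2* all were below every floxed heart. Neither gene passed in deleted against cre hearts (0.69, adjusted p = 0.0697 for *Pts* and 0.49, adjusted p = 0.0989 for *Man2a2*) or in deleted against floxed hearts (-0.25, adjusted p = 0.505 and -0.36, adjusted p = 0.214).

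For 3 genes the call followed 1 floxed line, and each deleted line lay on the side of its own floxed line. *Lgr6*, a receptor for R-spondins, read 6.17 and 6.22 in cre hearts and 6.0 to 6.24 in *Gata4*-deleted hearts, beside 6.30 and 6.26 in *Gata4* floxed hearts. It read 7.88 to 7.94 in *Gata6*-deleted hearts and 7.62 and 7.92 in *Gata6* floxed hearts. The difference was -0.83 against both lines (limma adjusted p = 0.0293), -0.08 against *Gata4* floxed (adjusted p = 0.917) and -1.57 against *Gata6* floxed hearts (adjusted p = 0.00185). *Epb41l4a*, a gene of the band 4.1 family, read 6.83 and 6.65 in cre hearts, 5.84 to 5.95 in *Gata4*-deleted hearts, 6.51 to 6.75 in *Gata6*-deleted hearts, 5.53 and 5.52 in *Gata4* floxed hearts and 6.59 and 6.57 in *Gata6* floxed hearts. The cre hearts lay near the *Gata6* lines, and the *Gata4*-deleted hearts were above both *Gata4* floxed hearts by 0.36 on average (SE 0.09, limma adjusted p = 0.192). Cre hearts differed by 0.69 from both floxed lines (limma adjusted p = 0.0364), 1.22 from *Gata4* floxed (adjusted p = 0.00247) and 0.16 from *Gata6* floxed hearts (adjusted p = 0.674). *Snrpe*, a core protein of small nuclear ribonucleoproteins, was chosen after its values were seen. It read 8.73 and 8.86 in cre hearts, 8.77 to 8.92 in *Gata4*-deleted and 7.63 to 7.69 in *Gata6*-deleted hearts, against 8.70 and 8.86 in *Gata4* floxed and 7.66 and 7.68 in *Gata6* floxed hearts. Its difference of 0.57 from both lines (limma adjusted p = 0.0375) was 0.02 from *Gata4* floxed and 1.13 from *Gata6* floxed hearts.

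*Per1* was the 1 named gene that passed with all 6 deleted hearts on the cre side of the midpoint with both floxed lines. With each line's own midpoint the *Gata6*-deleted hearts lay on the floxed side. They differed from *Gata6* floxed hearts by 0.04 (limma adjusted p = 0.999), and *Gata4*-deleted from *Gata4* floxed hearts by 1.44 (limma adjusted p = 0.00261). *Per1*, a repressor of the circadian clock and a target of glucocorticoids, read 8.35 and 8.04 in cre hearts, 8.20 to 8.25 in *Gata4*-deleted hearts, 7.88 to 7.97 in *Gata6*-deleted hearts, 6.71 and 6.86 in *Gata4* floxed hearts and 8.04 and 7.74 in *Gata6* floxed hearts. The *Gata4* floxed hearts were low, and the other 10 lay between 7.74 and 8.35. The difference from both floxed lines was 0.85 (SE 0.11, limma adjusted p = 0.0375), made up of 1.41 against *Gata4* floxed (adjusted p = 0.00425) and 0.30 against *Gata6* floxed hearts (adjusted p = 0.492). *Ciart*, another clock repressor, read 9.0 and 8.88 in cre hearts, 8.41 to 8.89 in deleted hearts, 6.81 and 7.08 in *Gata4* floxed hearts and 8.93 and 8.92 in *Gata6* floxed hearts. Again only the *Gata4* floxed hearts were low, and the cre hearts lay on both sides of the *Gata6* floxed hearts. The difference of 1.0 (SE 0.13, limma adjusted p = 0.0375) was 1.99 against *Gata4* floxed (adjusted p = 0.00222) and 0.01 against *Gata6* floxed hearts (adjusted p = 0.996), and a second probeset of *Ciart* passed at 0.96.

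In other clock genes, *Arntl* and *Per2*, the *Gata4* floxed hearts also stood apart, and neither gene passed against both lines. *Arntl*, the activator that drives *Per1* and *Ciart*, read 5.17 and 5.23 in cre hearts, 4.98 to 5.36 in deleted hearts, 6.34 and 6.45 in *Gata4* floxed hearts and 5.69 and 5.22 in *Gata6* floxed hearts, a difference of -0.73 (SE 0.13, limma adjusted p = 0.116). Against *Gata4* floxed hearts alone *Arntl* passed (-1.19, adjusted p = 0.0368), as did deleted against floxed hearts (-0.82, adjusted p = 0.0266). *Per2*, a further repressor, named after its values were seen, read 7.56 and 7.32 in cre hearts, 7.36 to 7.93 in deleted hearts, 6.63 and 6.32 in *Gata4* floxed hearts and 7.18 and 7.48 in *Gata6* floxed hearts, a difference of 0.54 (SE 0.12, limma adjusted p = 0.235). Activator and repressors stood opposite to each other, and in both the *Gata4* floxed hearts were the group apart. Among the 18 clock genes on the array, the 2 that passed were both higher in cre hearts (0.0591% of all probesets), and 10 had all 6 deleted hearts on the cre side (55.6%, beside 4.15% of all probesets). The side was set by the midpoint with both floxed lines. The list was written with earlier results of these data known, so its counts are descriptions and the shares no measure of chance. The list's median difference was 0.11 against both lines, 0.24 against *Gata4* floxed and 0.0016 against *Gata6* floxed hearts, beside 0.01 for all probesets. It was 0.058 without cre heart 1 and 0.17 without cre heart 2. The time of day at which each heart was taken is not given in the sources used here, and its part in these values was not tested.

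**Figure D3:**
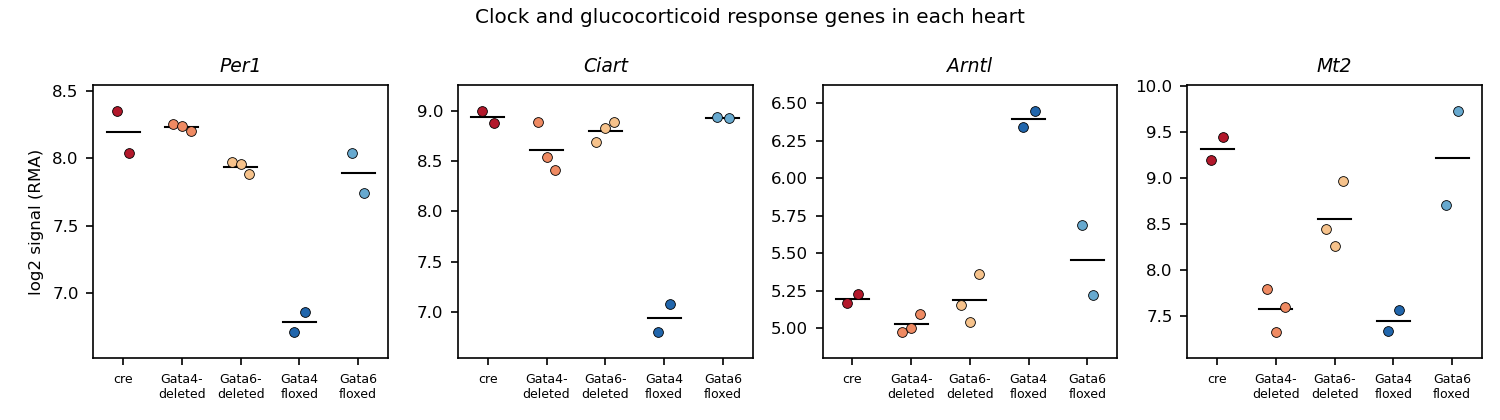
Log2 RMA signal (y axis) of each heart by group for the clock genes *Per1*, *Ciart* and *Arntl* and for *Mt2*, with bars at group means. The *Gata4* floxed hearts are lowest for *Per1* and *Ciart* and highest for *Arntl*, and for *Mt2* both *Gata4* lines are low.

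*Arntl* and its partner bind the E-box, and each of the clock genes that passed has a promoter that holds it. They are shown because the 2 genes moved together between groups; sequences are those of RefSeq on GRCm38.p6, 5′ to 3′ on the gene's strand, over the 250 bases before the start of the gene, with each E-box (CACGTG, the same on both strands) in capitals. The *Ciart* stretch lies on chromosome 3, minus strand, at chr3:95882229-95882478 and holds 3 E-boxes. The *Per1* stretch lies on chromosome 11, plus strand, at chr11:69098699-69098948 and holds 1. *Per1* had 2 listed promoters, and the stretch shown was chosen for the number of E-boxes it holds.
Ciart: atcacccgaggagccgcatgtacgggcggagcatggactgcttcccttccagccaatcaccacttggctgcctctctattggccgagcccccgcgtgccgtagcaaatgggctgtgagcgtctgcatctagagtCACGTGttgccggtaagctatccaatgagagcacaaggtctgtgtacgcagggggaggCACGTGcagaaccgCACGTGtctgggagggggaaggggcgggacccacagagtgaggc
Per1: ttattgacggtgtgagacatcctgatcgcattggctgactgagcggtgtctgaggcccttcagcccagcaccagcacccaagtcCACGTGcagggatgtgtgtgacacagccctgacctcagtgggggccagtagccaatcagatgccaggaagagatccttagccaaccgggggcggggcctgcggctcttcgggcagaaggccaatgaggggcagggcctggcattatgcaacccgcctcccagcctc
Over windows that also take in the 50 bases after the start, the letters were found in 5 of 15 clock genes that had a promoter in the table (33.3%) and in 2187 of 27025 genes in all (8.09%). *Arntl* itself had none in its windows. A match describes these letters and is no measured binding site.

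The other called probeset with all 6 deleted hearts on the cre side had no gene name. Probeset 10341884, named after its values were seen, read 4.70 and 4.37 in cre hearts, 4.37 to 4.46 in *Gata4*-deleted hearts, 4.44 to 4.56 in *Gata6*-deleted hearts, 3.38 and 3.55 in *Gata4* floxed hearts and 3.70 and 3.62 in *Gata6* floxed hearts. All 8 hearts with cre were thus above all 4 without it. The difference of cre from floxed hearts was 0.97 (limma adjusted p = 0.0157), with 1.07 against *Gata4* floxed and 0.88 against *Gata6* floxed hearts, and that of deleted from floxed hearts was 0.90 (adjusted p = 0.00665). It missed the threshold without cre heart 1 (adjusted p = 0.0769) or *Gata4* floxed heart 1 (adjusted p = 0.0759). Its signal was low on an array whose median was near 5.6, and what its probes match is not known here.

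Genes called in cre hearts were looked up in gene order, since a transgene and its flanking DNA sit at one place. *Plet1* and *Pts*, both lower, were direct neighbours among measured genes on chromosome 9. *Esco1* and *Riok3*, both higher, lay 9 measured genes apart on chromosome 18, with *Gata6* itself between them, 6 genes after *Esco1* and 3 before *Riok3*. The ends of a stretch around *Gata6*, *Colec12* and *Ankrd29*, were chosen after the values were seen, and both were higher in cre hearts. Counts and median of the stretch are therefore descriptions, and the shares beside them are no measure of chance. It held 18 measured genes. Of these, 9 had both cre hearts above all 4 floxed hearts (9.33% of all probesets) and 2 below (6.46% of all probesets), 2 passed, and 10 had an unadjusted p under 0.05 (9 higher and 1 lower, against 8.33% of all probesets). The median difference in the stretch was 0.20, beside 0.01 for all probesets. Of the 43 other genes within 30 places of *Gata6*, 10 were above, 5 were below and none passed limma, with 5 at an unadjusted p under 0.05 (3 higher and 2 lower) and a median difference of 0.01. *Gata6* floxed and *Gata6*-deleted hearts carry an engineered allele in this stretch and *Gata4* floxed hearts do not. Against *Gata4* floxed hearts *Esco1* differed by 0.74 and *Riok3* by 0.54 (limma adjusted p = 0.0455 and 0.0452), and against *Gata6* floxed hearts by 0.63 and 0.53 (adjusted p = 0.0619 and 0.0296). The 6 deleted hearts carry cre too, and at *Esco1*, *Riok3* and *Plet1* all 6 lay on the floxed side. At *Pts* 1 *Gata6*-deleted heart lay on the cre side. Deleted hearts differed from floxed hearts by -0.03 at *Esco1* and 0.05 at *Riok3*. Whether DNA beside the transgene has a part in these values was not tested. The 21 called genes lay on 9 chromosomes, with 4 each on chromosomes 1, 2 and 7 and 3 on chromosome 18.

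**Figure D4:**
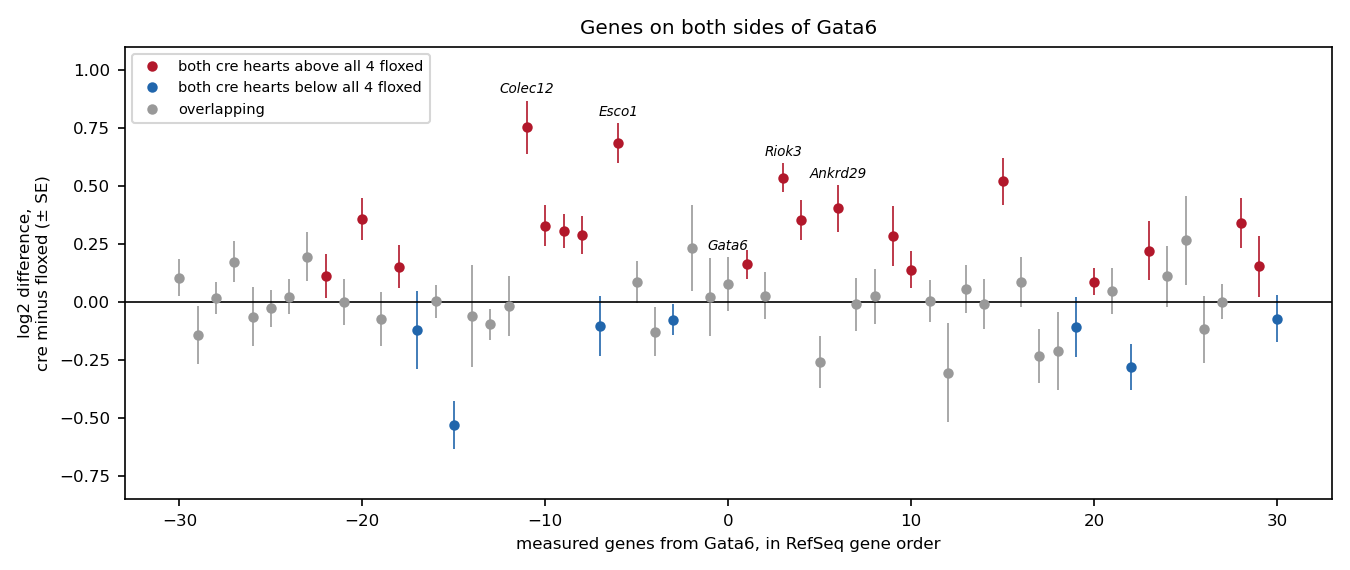
Log2 difference, cre minus floxed (y axis, ± SE of the limma fit), of the measured genes within 30 places of *Gata6* in RefSeq order (x axis). Red marks genes in which both cre hearts lay above all 4 floxed hearts and blue those in which both lay below, and *Gata6*, at 0.08, is grey for overlap while *Esco1* (0.68) and *Riok3* (0.54) on its sides are red.

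DNA damage is a known harm from cre, and none of 23 measured p53 targets and damage genes passed between cre and floxed hearts. The core targets *Cdkn1a*, *Bax* and *Gdf15* were on the list and were not analysed here, having no probeset with 1 symbol. Of the 23, 3 had an unadjusted p under 0.05 by limma, against 8.33% of all probesets (also 3 by a t-test, none after adjustment). The median difference was 0.02 (-0.015 without *Gata4* floxed heart 2). At the ends of the list were *Phlda3*, a p53 target that restrains Akt, at -0.33 (limma adjusted p = 0.442) and *Plk3*, a stress kinase, at 0.29 (limma adjusted p = 0.659). *Phlda3* read 6.34 and 6.19 in cre hearts, 6.26 to 7.01 in deleted hearts and 6.49 to 6.81 in floxed hearts, so the cre hearts were at the low end. None of 19 DNA repair genes and none of 18 apoptosis genes passed limma. Unadjusted, 2 repair genes and 1 apoptosis gene were under 0.05 by limma (8.33% of all probesets were), against none and 3 by the t-test. The apoptosis list held *Bcl2l1*, which encodes the survival protein Bcl-xL, at 0.56 (limma adjusted p = 0.207).

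No gene listed as a cardiomyocyte marker passed. The 10 cardiomyocyte markers all had positive differences (54.0% of all probesets had), with a median of 0.04. None had an unadjusted p under 0.05 by limma and 1 had by the t-test. Their mean log2 signal was 12.91 and 12.94 in cre hearts, 12.82 to 12.88 in deleted hearts and 12.86 to 12.90 in floxed hearts. *Myh6*, the adult myosin heavy chain whose promoter the labels name, read 13.26 and 13.19 in cre hearts, 13.09 to 13.16 in deleted hearts and 13.13 to 13.21 in floxed hearts, a difference of 0.07 (limma adjusted p = 0.837). *Myh7*, the fetal and slow chain whose promoter the methods name, read 10.14 and 9.22 in cre hearts, 10.82 to 12.68 in deleted hearts and 9.51 to 10.24 in floxed hearts. Cre and floxed hearts overlapped and all deleted hearts were above both, with differences of 2.21 from cre hearts and 2.14 from floxed hearts (limma adjusted p = 0.0473 and 0.0277). The difference of -0.07 between cre and floxed hearts did not pass (adjusted p = 0.98). None of the 14 stress and fetal genes passed limma, with 6 under an unadjusted p of 0.05 by limma (3 with positive and 3 with negative differences, against 8.33% of all probesets) and 2 by the t-test.

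*Ccn2*, a matrix-associated growth factor on the stress list, was not called but had its deleted hearts on the cre side. It read 9.43 and 9.23 in cre hearts, 9.64 to 10.08 in *Gata4*-deleted hearts, 9.14 to 9.23 in *Gata6*-deleted hearts, 8.85 and 8.98 in *Gata4* floxed hearts and 8.83 and 8.61 in *Gata6* floxed hearts. Every heart with cre was above every heart without it. The difference was 0.51 in cre against floxed hearts (SE 0.12, limma adjusted p = 0.304) and 0.72 in deleted against floxed hearts (limma adjusted p = 0.0391). *Zfp36*, an mRNA-destabilising early response gene, had the same order, with 7.38 and 7.02 in cre hearts, 7.0 to 7.33 in deleted hearts and 6.58 to 6.71 in floxed hearts, and did not pass in either comparison (0.56, adjusted p = 0.116 and 0.50, adjusted p = 0.0629). *Uchl1*, a deubiquitinase at the lower end of the stress list, read 5.97 and 5.89 in cre hearts, 6.10 to 7.31 in deleted hearts and 6.10 to 7.03 in floxed hearts, a difference of -0.56 (limma adjusted p = 0.479).

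Against both floxed lines, the glucocorticoid response had the highest median of the lists. Against *Gata6* floxed hearts alone antigen presentation was above it (0.26 and 0.21), and without cre heart 1 the growth hormone list was (0.21 and 0.14). Of its 21 measured genes 1 passed (*Per1*, against 0.0956% of all probesets), 20 had positive differences (54.0% of all probesets had) and 13 an unadjusted p under 0.05 by limma, against 8.33% of all probesets (2 by the t-test), and the median was 0.38, beside 0.01 for all probesets. The list was written with earlier results of these data known, so these counts are descriptions and the shares are no measure of chance. The mean log2 signal of the list was 7.88 and 8.13 in cre hearts, 7.67 to 7.98 in deleted hearts and 7.45 to 7.74 in floxed hearts. It was set unequally by the hearts, since the median was 0.14 without cre heart 1 and 0.51 without cre heart 2, and it was 0.45 against *Gata4* floxed and 0.21 against *Gata6* floxed hearts. *Mt2*, a metallothionein, read 9.20 and 9.44 in cre hearts, 7.33 to 7.79 in *Gata4*-deleted hearts, 8.26 to 8.96 in *Gata6*-deleted hearts, 7.34 and 7.56 in *Gata4* floxed hearts and 8.70 and 9.73 in *Gata6* floxed hearts, which placed cre hearts with the *Gata6* lines. Its difference of 0.99 did not pass (SE 0.28, limma adjusted p = 0.374). *Fkbp5*, a brake on the glucocorticoid receptor, named after its values were seen, read 8.18 and 7.31 in cre hearts, 6.61 to 7.76 in deleted hearts and 6.58 to 7.11 in floxed hearts, and did not pass (0.82, limma adjusted p = 0.431). The cre hearts thus stood apart from each other as much as from the floxed hearts. *Tsc22d3*, the leucine zipper induced by glucocorticoids, also named after its values were seen, read 8.00 and 7.84 in cre hearts, 7.74 to 8.27 in deleted hearts, 7.17 and 7.22 in *Gata4* floxed hearts and 7.84 and 7.83 in *Gata6* floxed hearts. As with *Per1*, the *Gata4* floxed hearts were low, and the difference of 0.41 did not pass (limma adjusted p = 0.106).

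Against both floxed lines, interferon response genes had the lowest median. Against *Gata6* floxed hearts alone the atrial (-0.21), erythroid (-0.19), X and Y sex (-0.11), stress and fetal (-0.10) and macrophage (-0.09) lists were lower. The interferon list was at -0.07 there. The 3 erythroid genes were also lower without cre heart 1, cre heart 2 or *Gata4* floxed heart 1 (-0.35, -0.33 and -0.30, beside -0.31, -0.29 and -0.26 for interferon). Without *Gata4* floxed heart 1 the fibroblast and matrix list was lower too (-0.28). Of 23 measured interferon genes none passed limma, 3 had positive differences (54.0% of all probesets had) and 9 an unadjusted p under 0.05, against 8.33% of all probesets (3 by the t-test, none after adjustment), and the median was -0.31. Both cre hearts were below all floxed hearts in 9 of the 23 (39.1%, against 6.46% of all probesets). This list too was written with earlier results of these data known, so its counts are descriptions. *Ifit1*, an antiviral protein that binds foreign RNA, read 5.09 and 5.37 in cre hearts, 5.38 to 6.12 in deleted hearts and 5.85 to 6.47 in floxed hearts, a difference of -0.83 (SE 0.20, limma adjusted p = 0.296). *Ifit3*, its partner, read 5.59 and 5.57 in cre hearts, 5.92 to 6.46 in deleted hearts and 6.14 to 6.28 in floxed hearts, a difference of -0.63 (SE 0.12, limma adjusted p = 0.167). Deleted hearts lay above the cre hearts in both. The list's median was -0.46 against *Gata4* floxed and -0.07 against *Gata6* floxed hearts. The plot of list medians leaves out the X and Y sex genes and the loxP target genes. It gives the other lists against both lines and against each.

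**Figure D5:**
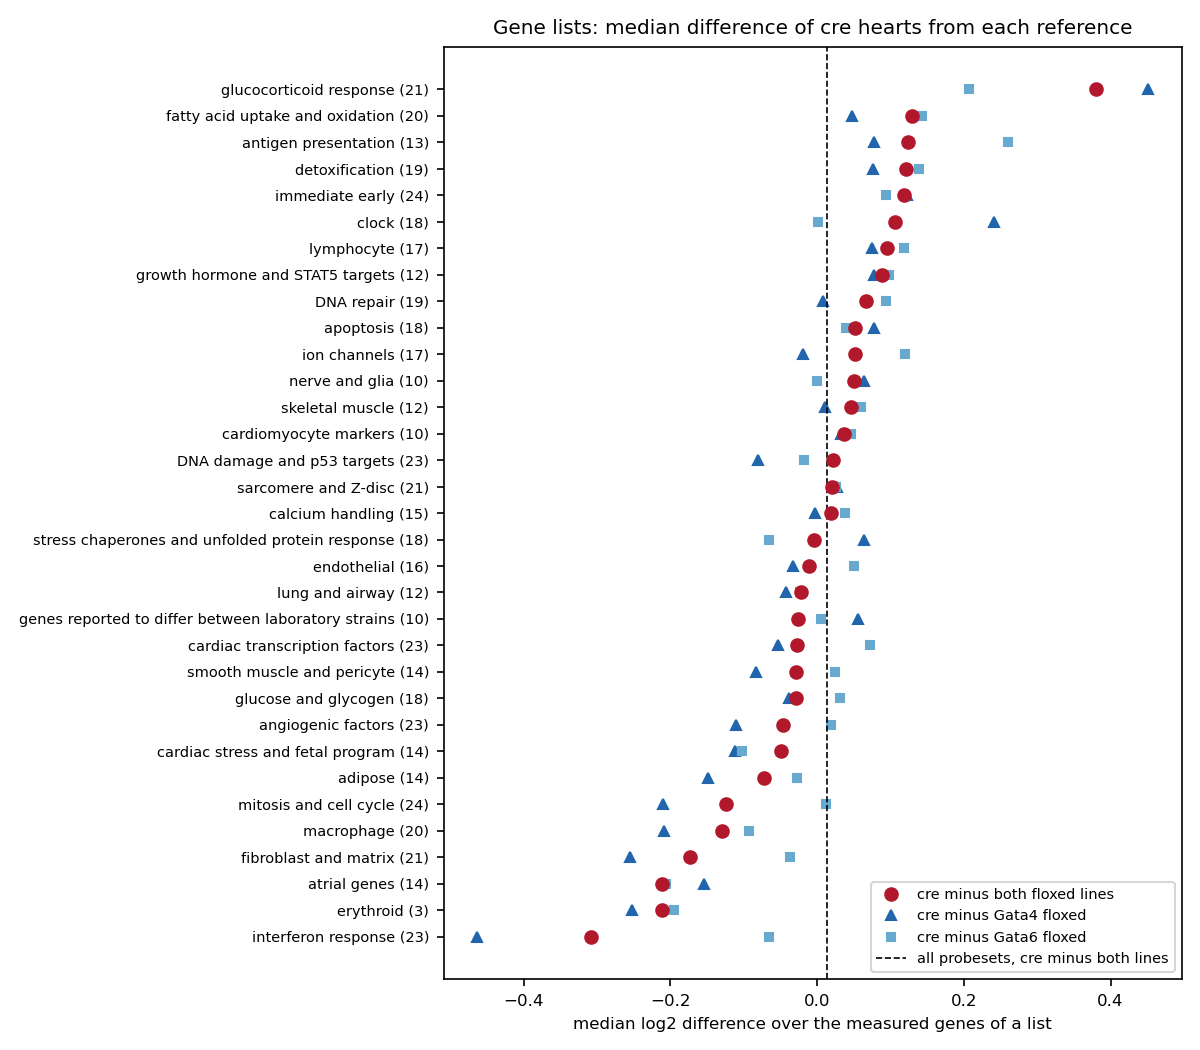
Median log2 difference (x axis) over the measured genes of each list shown (rows, number of genes in brackets) of cre hearts from both floxed lines, from *Gata4* floxed and from *Gata6* floxed hearts. The X and Y sex genes and the loxP target genes are not shown. Against both lines the glucocorticoid list is highest (0.38) and the interferon list lowest (-0.31), whereas against *Gata6* floxed hearts antigen presentation is highest (0.26) and the atrial list lowest (-0.21), and the dashed line is the median of all probesets (0.01).

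No marker of other heart cells passed, and fibroblast and macrophage lists had negative medians. Of all probesets 54.0% had a positive difference and 8.33% an unadjusted p under 0.05 by limma. Of 21 fibroblast and matrix genes 1 had a positive difference, and the median was -0.17 (-0.26 against *Gata4* floxed and -0.04 against *Gata6* floxed hearts). By limma 2 of the 21 had an unadjusted p under 0.05 and none by the t-test. *Col14a1*, a collagen of the fibril surface, read 7.32 and 7.36 in cre hearts, 7.80 to 8.10 in deleted hearts and 7.59 to 8.13 in floxed hearts, a difference of -0.47 (limma adjusted p = 0.41). *Col1a1*, the main fibrillar collagen, read 8.85 and 9.08 in cre hearts, 9.07 to 9.55 in deleted hearts and 8.96 to 9.63 in floxed hearts, and overlapped. The list's median was -0.068 without cre heart 1, -0.077 without *Gata4* floxed heart 2 and -0.099 without *Gata6* floxed heart 1, and it was -0.28 without cre heart 2 or *Gata4* floxed heart 1. Of 20 macrophage markers 3 had positive differences, the median was -0.13 (-0.071 without cre heart 1 and -0.079 without *Gata4* floxed heart 2, with 2 genes unadjusted by limma and none by the t-test), and *Adgre1*, which encodes F4/80, read 6.57 and 6.94 in cre hearts, 6.33 to 7.26 in deleted hearts and 6.92 to 7.40 in floxed hearts. In whole-heart RNA fewer cells of a type and less RNA per cell cannot be told apart.

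Atrial genes were measured because the amount of atrium in a whole-heart sample can vary. Of 14 genes none passed limma and 4 had positive differences (54.0% of all probesets had), with a median of -0.21. Unadjusted, 6 had a p under 0.05 by limma, against 8.33% of all probesets (2 by the t-test, none after adjustment). Their mean log2 signal was 7.19 and 7.27 in cre hearts, 7.04 to 7.38 in deleted hearts and 7.32 to 7.61 in floxed hearts. *Sln*, the atrial inhibitor of the calcium pump, read 5.40 and 5.45 in cre hearts, 5.15 to 6.01 in deleted hearts and 5.78 to 6.24 in floxed hearts, a difference of -0.61 (limma adjusted p = 0.461). *Nppa*, the atrial natriuretic peptide, read 11.12 and 11.53 in cre hearts, 11.05 to 12.17 in deleted hearts and 11.32 to 12.23 in floxed hearts, a difference of -0.51 (limma adjusted p = 0.492). *Kcna5*, a potassium channel gene on the atrial and ion channel lists, went the other way, with 7.16 and 7.0 in cre hearts, 6.74 to 7.01 in deleted hearts and 6.07 to 6.93 in floxed hearts, a difference of 0.55 (limma adjusted p = 0.304). The part of atrial tissue in the other lists was not tested.

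No gene of the lists for fatty acid use, glucose use and detoxification passed limma. Beside the counts below, 54.0% of all probesets had a positive difference and 8.33% an unadjusted p under 0.05 by limma. Of 20 genes of fatty acid uptake and oxidation 19 had positive differences and none passed (3 unadjusted by limma, 1 by the t-test), with a median of 0.13 that was 0.078 without cre heart 2 and 0.081 without *Gata4* floxed heart 2. Of 18 glucose and glycogen genes 3 had an unadjusted p under 0.05 by limma and 1 by the t-test, and of 19 detoxification genes 2 and 1. *Pdk4*, which spares glucose when fat is burned, read 11.27 and 11.56 in cre hearts, 10.99 to 11.43 in *Gata4*-deleted hearts, 10.19 to 10.41 in *Gata6*-deleted hearts, 11.75 and 10.82 in *Gata4* floxed hearts and 9.86 and 10.28 in *Gata6* floxed hearts. Its cre hearts were with the *Gata4* lines, and the difference of 0.73 did not pass (limma adjusted p = 0.441). *Gstp1*, a glutathione transferase, read 11.80 and 12.04 in cre hearts, 11.07 to 11.81 in deleted hearts and 11.15 to 11.30 in floxed hearts, and *Adh1*, an alcohol dehydrogenase, read 9.49 and 8.86 in cre hearts, 8.50 to 9.27 in deleted hearts, 7.72 and 7.63 in *Gata4* floxed hearts and 9.21 and 9.07 in *Gata6* floxed hearts. Neither passed, at 0.69 (limma adjusted p = 0.264) and 0.77 (limma adjusted p = 0.397). All 12 measured growth hormone and STAT5 targets had positive differences, with a median of 0.09, and none passed limma (1 unadjusted, none by the t-test). That median was 0.21 without cre heart 1, 0.020 without cre heart 2 and 0.051 without *Gata6* floxed heart 2.

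Several other lists leaned one way with no gene passing. Over all probesets 54.0% had a positive difference and 8.33% an unadjusted p under 0.05 by limma. Of 24 immediate early genes 18 had positive differences (4 unadjusted by limma, 1 by the t-test), the median was 0.12, and 6 had all deleted hearts on the cre side (25%, against 4.15% of all probesets). Of 13 antigen presentation genes 12 had positive differences (none unadjusted by either test), with a mean log2 signal of 7.29 and 7.32 in cre hearts, 6.96 to 7.32 in deleted hearts and 6.94 to 7.17 in floxed hearts. Of 24 genes of mitosis and the cell cycle 5 had positive differences (2 unadjusted by limma, 3 by the t-test), and the median of -0.12 lay between -0.23 without *Gata4* floxed heart 1 and 0.084 without *Gata4* floxed heart 2. None of 16 endothelial, 17 lymphocyte and 14 smooth muscle genes passed limma, with 1, none and none unadjusted by limma and 1, 1 and none by the t-test.

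Genes reported to differ between laboratory strains were listed as a guide to background, and 10 were measured. None passed limma in cre against both floxed lines, with 2 at an unadjusted p under 0.05, against 8.33% of all probesets (none by the t-test). Those 2 were *Il15*, a cytokine that sustains natural killer cells, and *Cwc22*, a splicing factor. *Cwc22* read 7.64 and 7.49 in cre hearts, 6.96 to 7.25 in *Gata4*-deleted hearts, 9.54 to 10.33 in *Gata6*-deleted hearts, 7.30 and 7.22 in *Gata4* floxed hearts and 10.19 and 10.24 in *Gata6* floxed hearts. *Il15* read 8.58 and 8.39 in cre hearts, 8.02 to 9.12 in *Gata4*-deleted hearts, 5.30 to 5.77 in *Gata6*-deleted hearts, 7.80 and 8.41 in *Gata4* floxed hearts and 5.91 and 5.94 in *Gata6* floxed hearts. In both genes the cre hearts were beside the *Gata4* lines and far from the *Gata6* lines. *Cwc22* differed by 0.30 from *Gata4* floxed (limma adjusted p = 0.831) and by -2.65 from *Gata6* floxed hearts (limma adjusted p = 0.00199), and *Il15* by 0.38 (adjusted p = 0.866) and 2.56 (adjusted p = 0.0296).

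Taken one floxed line at a time, cre hearts differed at 29 probesets from *Gata4* floxed (0.0816%) and at 51 from *Gata6* floxed hearts (0.143%), and the floxed lines differed from each other at 81 (0.228%). Of the 34 probesets called against both lines, 17 passed against *Gata4* floxed, 21 against *Gata6* floxed and 8 against each, and at 6 the floxed lines themselves differed. These comparisons share the cre hearts.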

How the data were processed

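Whole-heart RNA of 12 mice had been hybridised to Affymetrix mouse gene ST arrays, 1 array per mouse. The deposited values are log2 signals that the authors made by RMA (background correction, normalization between arrays, summary per probeset). Its version and annotation are not given in the sources used here. They were used as deposited, without a filter. A table of ratios to a baseline in 12 columns, which no label pairs with a sample, was not used. The number of arrays limits the precision.

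Symbols came from the platform's probe table, updated by Entrez ID through RefSeq (GRCm38.p6, also used for gene order). Of all probesets 21789 had 1 symbol (19938 genes), 1621 several and 12147 were not listed. A gene is given by its brightest probeset on average. One group-means model was fitted with limma 3.58.1 in R 4.3.3, with 7 residual and 2.50 prior degrees of freedom, two-sided, with Benjamini-Hochberg adjustment over all 35557 probesets. The script was tested on simulated data. There 76 of 100 log2 changes of size 1 passed and 47 of 100 of size 0.585, so a gene that did not pass may still differ. P-values measure the spread between these mice. Named genes were the 10 highest and 10 lowest log2 differences among genes that passed with cre hearts apart from all floxed hearts (places left filled by smallest p, given as not passing), the *Gata* and myosin genes, passing list members and up to 2 at each end of 35 gene lists. Comparison, lists and rule were chosen with earlier results of these data known. Counts over the lists are therefore descriptions, and the shares of all probesets beside them are no measure of chance. Alternatives covered normalization, dim probesets, prior, replicate block, averages per gene, arrays and reference used, thresholds, the side rule, the methods' t-test and each array left out.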

Additional observations from a re-analysis of the deposited data

Results flagged for a closer look

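The difference of cre hearts from *Gata4* floxed hearts was tested against that from *Gata6* floxed hearts for 61 named features, and 7 passed by limma. Of all 35557 probesets 81 passed (0.228%). Many of the features were named for their values in these same hearts, *Snrpe* and *Tsc22d3* among them, so the count of 7 is a description. The gap was 2.95 for *Cwc22* (adjusted p = 0.00102), 1.98 for *Ciart* (adjusted p = 0.00102), 1.49 for *Lgr6* (adjusted p = 0.00102), 1.11 for *Per1* (adjusted p = 0.0106), 1.06 for *Epb41l4a* (adjusted p = 0.00283) and 0.64 for *Tsc22d3* (adjusted p = 0.0204), the cre difference being the more positive against *Gata4* floxed hearts. It was -1.11 for *Snrpe* (adjusted p = 0.0012). This gap equals the difference between the floxed lines, so it says nothing about cre hearts by itself.

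In 2 of the 61 features a floxed heart stood far from the other 3, where chance gives about 1 in 20. *Myl4*, the atrial light chain, read 9.04 in *Gata6* floxed heart 2, against 9.64 to 9.77 in the others. *Cry2*, a clock repressor, read 7.44 in *Gata4* floxed heart 2, against 7.66 to 7.68 in the others.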

How the results depend on the processing

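The count of 34 (21 higher, 13 lower) was 67 (37 and 30) among brighter probesets, which kept all 23 calls tested there, and 58 (37 and 21) with a trend and robust prior, which kept 33. Averages per gene gave 21 lower. With the 4 floxed hearts as 1 group it was 15 (10 and 5) in 12 arrays and 0 (0 and 0) in 6. With only the 6 arrays it was 3 higher and 20 lower, which kept 5 of the 34, and against *Gata6* floxed hearts alone 25 were lower. The methods' t-test gave 2211 unadjusted and 0 adjusted, and thresholds of 0.01 and 0.1 gave 3 and 67. Leaving out 1 heart gave 4 to 13 (2 to 5 higher, 1 to 8 lower). Replicate numbers did not pair the samples (correlations of -0.03, 0.01 and 0.01), and with the replicate block 4 probesets passed (2 and 2). Against *Gata4* floxed hearts the count of 29 was 18 with median centring, 95 among brighter probesets, 9 with the block, 61 with the other prior, 75 with averages and 4 to 15 without 1 heart. Against *Gata6* floxed hearts the count of 51 was 19 with the block and 18 to 349 without 1 heart, the highest without *Gata6* floxed heart 1.

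Deleted hearts followed cre hearts at 5 probesets by group means, at 1 with each line's own midpoint and at 2 to 4 without 1 deleted heart. They followed floxed hearts at 34 with a threshold of 0.1 and at 21 to 23 without 1 deleted heart. Of 1090 alternative values of 61 named features, 847 kept direction and side of the threshold, 214 lost the call, 19 gained one and 10 changed sign, of which none was a called gene. *Myh7* was 0.059 and *Cwc22* 0.30 against *Gata4* floxed hearts only, and *Kcnj8* was 0.0031 with median centring and 0.11 against *Gata6* floxed hearts only. Leaving out 1 heart gave -0.53 to 0.40 for *Myh7* (above 0 without cre heart 2 or *Gata6* floxed heart 1), -0.022 to 0.18 for *Gata6* (below 0 without *Gata6* floxed heart 2), -0.00081 to 0.10 for *Abcc8* (below 0 without cre heart 1) and -0.094 to 0.082 for *Kcnj8* (above 0 without *Gata4* floxed heart 2 or *Gata6* floxed heart 1). The causes were not tested. Scaling moved the all-probeset median to between 0.00 and 0.02.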
